A study of Homo sapiens with 18 samples.

Results

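The genes described here are those that PIK75 and BGT226, inhibitors of phosphoinositide 3-kinase (PI3K), each shifted in the same direction in NCI-H295R cells. NCI-H295R was established from a human adrenal cortex cancer and secretes steroids. A gene was a member when PIK75 alone and BGT226 alone both differed from untreated cells with the same sign, each at an adjusted p under 0.05 by edgeR's quasi-likelihood F-test with Benjamini-Hochberg adjustment over all genes tested. Of 15787 genes with enough counts to be tested, out of 58870 in the table, 1042 were members. Of these, 393 were higher with both agents (shared rises, 2.49% of genes tested) and 649 were lower with both (shared falls, 4.11%). Every member had passed the filter on low counts, since the rule needs both tests.

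The cells were left untreated or were given PIK75, BGT226 (which also inhibits mTOR) or STA9090 (ganetespib, an HSP90 inhibitor), or STA9090 together with PIK75 or with BGT226. Exposure lasted 48 h at a stated 20 nM, and each of the 6 groups had 3 replicates. The labels give neither the dose of each agent inside a combination nor a vehicle for the untreated cells. All libraries came from 1 cell line, and no label says that replicates were more than separate samples, so p-values measure the spread between these libraries. In bulk RNA, fewer cells of a kind and less RNA per cell cannot be told apart. The untreated and single-agent libraries chose the members, so values in them are given as a description without a test. The 9 libraries with STA9090 entered the choice only through the filter and the estimate of the spread, which 1 model of all libraries shares, and each combination was compared with STA9090 alone there. With separate models of 9 libraries each there were 401 rises and 584 falls.

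PI3K makes a membrane lipid that activates the kinase AKT, downstream of receptors for insulin, insulin-like growth factors and other ligands. AKT keeps FOXO transcription factors out of the nucleus, and through mTORC1 it favours protein synthesis and the SREBP factors that switch on genes of cholesterol and fatty acid synthesis. Adrenocortical cells take up or make cholesterol, move it into mitochondria with the help of STAR, and turn it into steroids by enzymes such as CYP11A1 and CYP17A1.

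Library totals ran from 10.2 to 21.1 M expected counts. All 9 adrenocortical markers were measured, with NR5A1, a transcription factor of steroid-making cells, between 367 and 658 CPM (counts scaled to a common library total) in every library. INHA, NR0B1 and MC2R, also among the 9, were low, at no more than 4.83, 7.72 and 6.95 CPM in any library. The summed level of all 9 markers was 2098 to 2524 CPM in untreated libraries, 1296 to 1488 with PIK75 and 2024 to 2141 with BGT226. With STA9090 it was 2038 to 2645, with STA9090+PIK75 1002 to 1047 and with STA9090+BGT226 2399 to 2613. The sum includes the members CYP17A1, CYP11A1 and STAR. It also includes CYP21A2, which ran from 247 to 1289 CPM over the libraries. Of markers of other cell types, 1 of 6 for fibroblasts, 0 of 5 for endothelium, 2 of 6 for leukocytes and 1 of 5 for chromaffin cells passed the filter, and CDH5, CD3E and TH were at 0 in every library. The fibroblast sum, mostly COL1A1, was 8.45 to 11.4 CPM in untreated libraries and 0.802 to 1.26 with STA9090+PIK75, and its part in the results was not tested.

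PIK75 alone called 8.49% of genes tested higher and 10.2% lower than in untreated cells, and BGT226 alone 12.8% and 15.7%. A further 270 genes were called in opposite directions by the agents, 1635 with PIK75 only and 3201 with BGT226 only. Among shared rises the median log2 fold change alone was 0.54 with PIK75 and 0.55 with BGT226, and among shared falls it was -0.44 and -0.49. Just inside the threshold lay NAXD (0.50 and 0.47) and FBXO10 (-0.21 and -0.47), and just outside lay ADGRG1 (-3.28 and -1.63), PQBP1 (-0.25 and -0.40) and CCDC78 (0.84 and 0.92). The number of rises rested on single libraries more than the number of falls. It was 234 without untreated replicate 1 and 260 without BGT226 replicate 3.

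The rises and falls differed in the kind of gene they held. Of the rises, 79.8% were protein-coding and 14.0% were long noncoding RNAs. Of the falls, 98.8% were protein-coding and 0.616% long noncoding, against 82.6% and 10.9% of all genes tested. Median expression was 15.7 CPM for rises, 34.9 for falls and 11.1 for all genes tested. The median exon length of the protein-coding members was 6529 bases for rises, 4657 for falls and 5158 for all genes tested.

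The same direction returned in most members when the inhibitors were given on top of STA9090. Of 393 rises, 237 were called higher with STA9090+PIK75 than with STA9090 (60.3%, against 17.7% of all genes tested) and 294 with STA9090+BGT226 (74.8%, against 19.5%). In both comparisons together 198 rises were called higher (50.4%, against 7.11%). Of 649 falls, 480 were called lower with STA9090+PIK75 (74.0%, against 19.8%), 564 with STA9090+BGT226 (86.9%, against 20.9%) and 431 with both (66.4%, against 8.08%). These 2 comparisons share the STA9090 libraries, so their agreement with each other was not tested. Without untreated replicate 1, 127 rises were called with both.

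No member was called in both STA9090 comparisons in the direction opposite to that alone. The same count was 0 by DESeq2 and 6 with no filter on low counts. In single comparisons 9 rises were called lower and 6 falls higher with STA9090+PIK75, and 0 and 0 with STA9090+BGT226. At the other end, 59 rises and 33 falls passed neither comparison. As the mean of both combinations against STA9090, 290 rises were called higher (73.8%, against 16.9% of all genes tested) and 575 falls lower (88.6%, against 20.4%). The sign of that mean was positive for 382 of 393 rises and negative for 640 of 649 falls.

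All 6 combination libraries lay above all 3 STA9090 libraries for 57.3% of the rises, and 10.0% of all genes tested showed this. All 6 lay below for 70.0% of the falls, against 9.97% of all genes tested.

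Genes called with 1 agent alone returned mainly with that agent. Of 803 genes higher with PIK75 only, 52.9% were called higher with STA9090+PIK75 and 16.4% with STA9090+BGT226, the latter beside 19.5% of all genes tested. Of 832 lower with PIK75 only, 67.4% and 16.9% were called lower. Of 1509 genes higher with BGT226 only, 75.2% were called higher with STA9090+BGT226 and 28.6% with STA9090+PIK75, and of 1692 lower with BGT226 only 83.6% and 27.2% were called lower. Called with both combinations were 11.6% to 25.4% of these 4 sets, and 50.4% and 66.4% of the shared rises and falls.

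**Figure D1:**
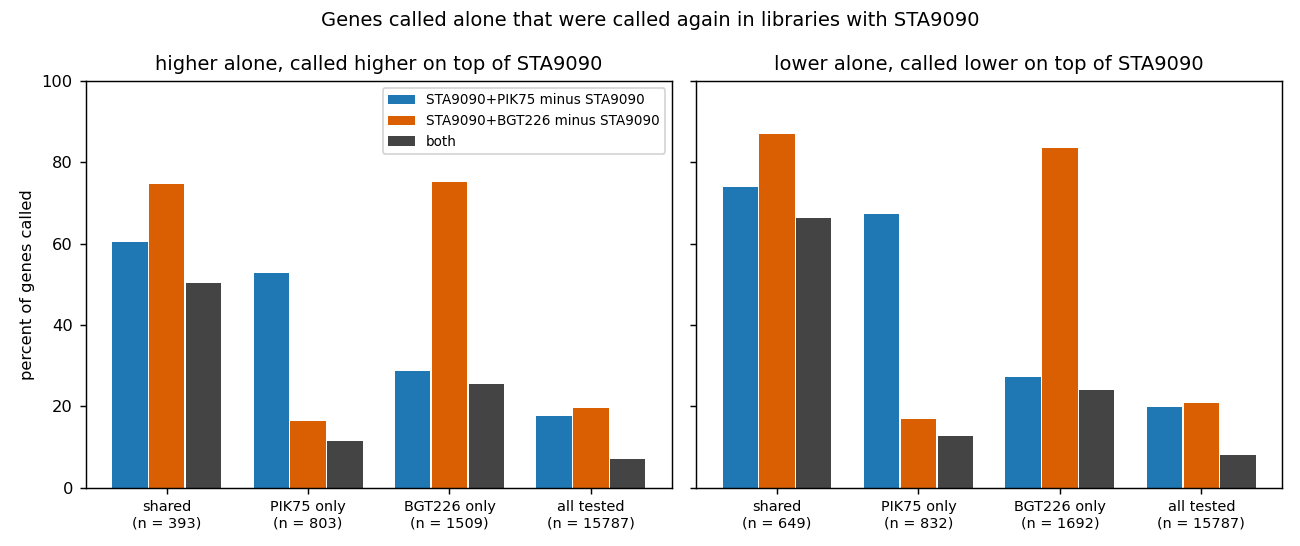
Percent of genes (y axis) called again in libraries with STA9090, for genes called higher (left) or lower (right) with both agents alone, with PIK75 only or with BGT226 only, and for all genes tested. Blue bars are STA9090+PIK75, orange bars STA9090+BGT226 and dark bars both; the dark bars reach 50.4% and 66.4% for shared genes and 7.11% and 8.08% for all genes tested.

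As a description, the size of the effect was near that seen without STA9090, in the libraries that chose the members. The median log2 fold change on top of STA9090 was 0.50 with PIK75 and 0.59 with BGT226 for rises, and -0.49 and -0.53 for falls, while the medians over all genes tested were -0.000501 and 0.03. Across the 393 rises the mean effect alone and the mean effect on top of STA9090 had a Pearson r of 0.49 and a Spearman rho of 0.52, and across the 649 falls 0.64 and 0.66. These are descriptions across genes, which share libraries and are not independent replicates. The choice of members by sign and adjusted p limits which sizes alone can occur, so neither the nearness nor the correlations were tested.

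The largest rises alone returned least often, and they were the most lowly expressed. Of the 43 rises at a log2 fold change of 1 or more with both agents alone, 20.9% were called with both combinations, and their median level was 1.16 CPM. The 122 rises from 0.5 to 1 had a median level of 6.12 CPM, and 59.8% returned. Of the 24 falls at or beyond 1, 62.5% returned, at a median level of 1.08 CPM. The part of expression level in this was not tested.

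**Figure D2:**
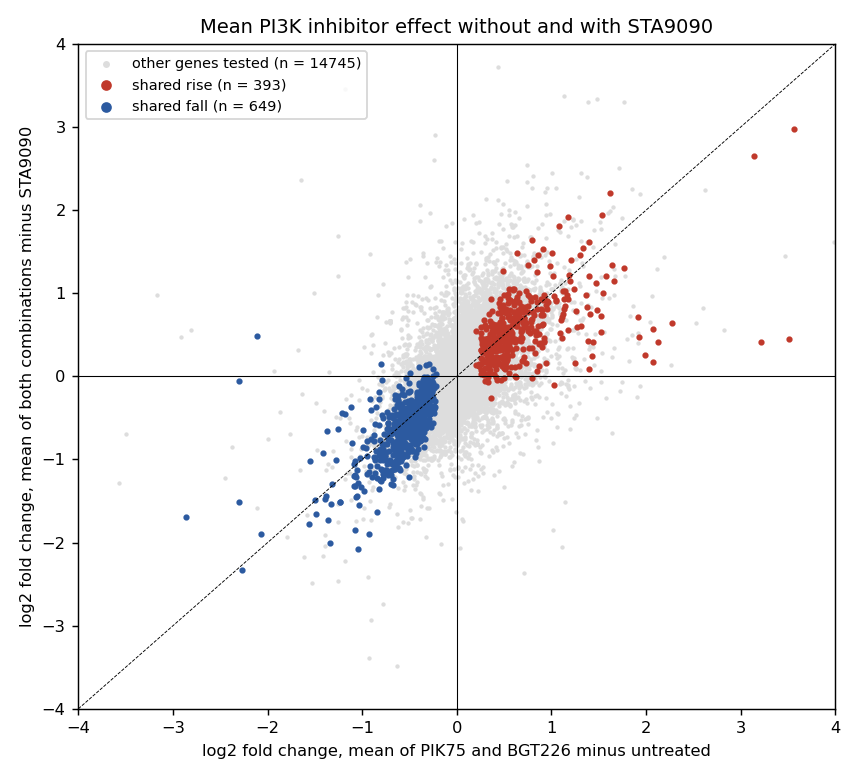
Log2 fold change of each gene, as the mean of PIK75 and BGT226 minus untreated (x axis) and as the mean of both combinations minus STA9090 (y axis), with shared rises in red, shared falls in blue and other tested genes in grey; the dashed line marks equal values. Rises lie mainly above and falls mainly below 0 on the y axis (382 of 393 and 640 of 649), and 15 genes that are no members lie outside the plotted range.

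Direct comparison of the combinations showed where the agents differed in size. STA9090+BGT226 was called above STA9090+PIK75 for 139 rises (35.4%) and below it for 61 (15.5%), beside 22.4% and 20.9% of all genes tested. For falls, STA9090+BGT226 was called lower for 203 (31.3%) and higher for 143 (22%), beside 20.9% and 22.4% of all genes tested. The differences thus ran in both directions, more often towards a larger effect with BGT226.

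Of 25 tested genes for PI3K, AKT and their phosphatases, PHLPP1 was the only member, beside 1042 of 15787 genes tested. It encodes a phosphatase that removes an activating phosphate from AKT (ENSG00000081913.14, chr18:62715450-62980433, GENCODE 29, hg38). PHLPP1 stood at 33.97, 36.5 and 34.1 CPM in untreated libraries, 60.6, 62.5 and 63.4 with PIK75 and 45.3, 42.5 and 48 with BGT226. On top of STA9090, at 27.2, 27.6 and 25.3 CPM, it reached 49.02, 48.6 and 48.2 with PIK75 and 41.8, 34.2 and 36.2 with BGT226. No treated library overlapped its controls, and the mean effect on top of STA9090 was called higher (log2 fold change 0.67, SE 0.0669, adjusted p = 2.33e-07).

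Among 22 tested receptors and adaptors, ERBB2 was a shared rise, and FGFR4 and GRB2 were shared falls. The receptor tyrosine kinase gene ERBB2 was low throughout, at 4.63–5.53 CPM in untreated and STA9090 libraries and 6.66–9.57 in all libraries with a PI3K inhibitor, without overlap, and it rose on top of STA9090 (log2 fold change 0.60, SE 0.126, adjusted p = 0.000835). FGFR4, a fibroblast growth factor receptor, fell from 32.6, 40.2 and 37.4 CPM with STA9090 to 8.21, 11.4 and 10.7 with STA9090+PIK75, whereas STA9090+BGT226 gave 33.7, 28.3 and 29.6, which overlapped the STA9090 libraries. The difference between the combinations was itself called (log2 1.58, SE 0.124, adjusted p = 3.97e-09). GRB2, an adaptor between receptors and RAS, overlapped STA9090 in both combinations (log2 -0.06 and -0.12).

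Receptor and PI3K genes often followed in such studies did not qualify. INSR, the insulin receptor, was lower with PIK75 alone (log2 -0.25) and higher with BGT226 alone (0.56). IRS2, an insulin receptor substrate, passed with PIK75 alone (0.60) and was at 0.20 with BGT226. ERBB3, IGF1R, PIK3CA and PIK3R1 passed with neither agent alone.

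Of 28 tested FOXO factors and targets, BTG1, CCNG2, FOXO1 and TXNIP were shared rises and PINK1 a shared fall. BTG1, an inhibitor of proliferation, stood at 81.9, 94.3 and 88.8 CPM untreated, 115, 115 and 111 with PIK75 and 129, 118 and 117 with BGT226. With STA9090 it stood at 81.6, 84.96 and 79.9, with STA9090+PIK75 at 99.1, 95.3 and 101 and with STA9090+BGT226 at 117, 107 and 109 CPM. The groups did not overlap in either setting (log2 fold change 0.35, SE 0.0597, adjusted p = 0.000127). CCNG2, a cyclin that marks quiescent cells, rose on top of STA9090 from 4.42 ± 0.565 to 6.78 ± 0.316 CPM with PIK75 and 11.03 ± 1.24 with BGT226 (SD, n = 3), a mean log2 change of 0.96 (adjusted p = 4.84e-05).

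FOXO1 and TXNIP moved mainly with BGT226. FOXO1 stood at 18.5, 17.6 and 21.3 CPM untreated, 22.1, 23.1 and 24.4 with PIK75 and 41.8, 41.7 and 41.8 with BGT226. On top of STA9090, at 16.5, 16.8 and 15.8 CPM, it was 14.9, 15.97 and 17.2 with PIK75 and 44.6, 44.2 and 45.1 with BGT226, so that PIK75 overlapped its controls there and BGT226 did not (difference of the combinations, log2 fold change 1.47, SE 0.0782, adjusted p = 1.96e-11). TXNIP, an inhibitor of thioredoxin and of glucose uptake, passed on top of STA9090 with BGT226 and not with PIK75 (log2 1.88 and 0.17). It stood at 38.9–42.7 CPM with STA9090, 43.6–46.5 with STA9090+PIK75 and 143–158 with STA9090+BGT226 (difference 1.71, SE 0.0833, adjusted p = 5.95e-12). PINK1, a kinase that marks damaged mitochondria, fell from 54.5–70.7 CPM to 39.4–44.2 in the combinations (log2 fold change -0.62, SE 0.0737, adjusted p = 1.94e-06).

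The core FOXO site TGTTTAC was searched on both strands in the RefSeq promoter windows (GRCh38.p14), which hold 250 bases before and 50 after each gene's start. It lay in 2.59% of the 270 shared rises with a window, in 1.39% of 502 shared falls and in 2.26% of 10646 genes tested. BTG1 and TXNIP hold it, and their surroundings are shown, 5′ to 3′ on the gene's strand with the match in capitals. They are chr12:92146023-92146081 (minus strand, match 209 bases before the start) and chr1:145996671-145996729 (minus strand, 124 bases before it).
BTG1: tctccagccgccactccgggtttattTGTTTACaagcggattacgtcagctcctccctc
TXNIP: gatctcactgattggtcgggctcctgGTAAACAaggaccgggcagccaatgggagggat
A match describes these letters only.

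Of 44 tested mTOR complex members, regulators and effectors, 2 were rises and 2 falls, beside 2.49% and 4.11% of all genes tested. DDIT4L, a relative of the mTORC1 inhibitor DDIT4, rose on top of STA9090 from 69.6–83.4 CPM to 110.3–126 with PIK75 and 92.97–106 with BGT226 (log2 fold change 0.54, SE 0.0754, adjusted p = 1.38e-05). RICTOR, the scaffold of mTORC2, was at 32.5–40.3 CPM untreated and 42.6–56.4 with either agent alone, but overlapped STA9090 in both combinations (log2 0.16 and 0.14). TBC1D7, a subunit of the TSC complex, fell on top of STA9090 (log2 fold change -0.43, SE 0.134, adjusted p = 0.0166), and without STA9090 replicate 2 that call was lost (log2 -0.41, adjusted p = 0.0555). LAMTOR5, which helps to anchor mTORC1 at the lysosome, stood at log2 -0.18 with PIK75 and -0.38 with BGT226.

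Rises outside the receptor, PI3K, FOXO and mTOR lists included FOSL2, from the list of immediate early genes, and CACNA1C. FOSL2, an AP-1 factor (ENSG00000075426.12, chr2:28392448-28417312), stood at 42.9, 47.3 and 47.95 CPM untreated, 131, 127 and 128 with PIK75 and 81.7, 79.3 and 81.2 with BGT226. With STA9090 it was 33.3, 37.1 and 36.5, with STA9090+PIK75 71.3, 70.5 and 69.8 and with STA9090+BGT226 80.2, 69.7 and 72.3 CPM. The combinations lay close to each other (log2 difference 0.07, SE 0.0658) and far above STA9090 (log2 fold change 1.02, SE 0.0612, adjusted p = 2.71e-10). CACNA1C, the pore subunit of a voltage-gated calcium channel (ENSG00000151067.21, chr12:1970786-2697950), was among the largest rises by the test and was named after its values were seen. It stood at 44.3, 42.02 and 37.95 CPM with STA9090, 113, 117 and 112 with STA9090+PIK75 and 83.6, 85.3 and 78.96 with STA9090+BGT226 (log2 fold change 1.23, SE 0.0591, adjusted p = 1.57e-11), and alone at 47.4–48.96, 157–162 and 72.7–77.1 CPM for untreated, PIK75 and BGT226.

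Other rises picked by size alone also held. ACKR3, a scavenger receptor for chemokines, rose from 4.13–4.44 CPM with STA9090 to 9.29–12.2 with PIK75 and 6.26–6.94 with BGT226 (log2 fold change 0.98, SE 0.121, adjusted p = 3.47e-06). TNFSF4, the OX40 ligand, reached 6.696–9.102 and 9.36–9.63 CPM from 2.196–5.901 (log2 fold change 1.05, SE 0.191, adjusted p = 0.000234). THBS3, a matrix thrombospondin, GNPTG, a subunit of the enzyme that tags lysosomal hydrolases, and GRM7, a glutamate receptor, rose by log2 0.92, 0.94 and 0.81, with adjusted p of 8.15e-06, 1.30e-05 and 8.11e-05. In these 5 genes no combination library overlapped STA9090.

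In CUX2 and KCNA4 the PIK75 libraries did overlap. CUX2, a homeobox factor, was at 6.19–9.3 and 6.86–9.17 CPM with PIK75 and BGT226 alone, against 2.199–2.98 untreated. On top of STA9090, at 1.08–2.37 CPM, PIK75 gave 1.79–2.21, an overlap, and BGT226 6.79–10.1 (difference 2.10, SE 0.2299, adjusted p = 3.62e-07). KCNA4, a voltage-gated potassium channel, gave 7.32–11.2 CPM with STA9090+PIK75, overlapping 5.76–7.61 with STA9090, and 14.8–15.3 with STA9090+BGT226. The 10 rises by size also hold COL25A1, a membrane collagen (log2 0.68), and TNXB (log2 2.21), a matrix protein gene whose pseudogene copy makes its count uncertain.

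WNT feedback genes were members only as rises. Of 16 tested genes of the WNT feedback and IGF2 list, RNF43, NKD1 and APCDD1, all inhibitors of WNT signalling, were shared rises, and all 3 were called again with both combinations. RNF43, which removes WNT receptors, stood at 57.4, 53.6 and 48.7 CPM with STA9090, 70.5, 67.99 and 74.7 with STA9090+PIK75 and 76.96, 78.5 and 71.99 with STA9090+BGT226 (log2 fold change 0.46, SE 0.0641, adjusted p = 1.31e-05). NKD1 rose by log2 0.58 (SE 0.0696, adjusted p = 2.56e-06) and APCDD1 by 0.44 (SE 0.0584, adjusted p = 8.39e-06). None of the 3 overlapped STA9090 in either combination. IGF2, a growth factor often abundant in adrenocortical carcinoma, was no member (log2 -0.07 with PIK75 alone and 0.58 with BGT226 alone).

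Of 19 tested host transcripts of small nucleolar RNAs, GAS5, C6orf48 and SNHG7 were shared rises, 0 were shared falls and all 3 returned with both combinations. GAS5 stood at 59.9, 65.3 and 61.1 CPM untreated, 78.4, 79.8 and 70.5 with PIK75 and 159.8, 161 and 156 with BGT226. On top of STA9090, at 51.3, 66.5 and 61.6 CPM, it stood at 101, 82.1 and 85.7 with PIK75 and 149, 154 and 143 with BGT226 (log2 fold change 0.95, SE 0.0808, adjusted p = 2.99e-08). In every setting the groups stood apart and BGT226 gave the higher level. C6orf48 rose from 11.3–14.7 CPM to 19.6–20.6 with PIK75 and 67.2–81.6 with BGT226 (log2 fold change 1.55, SE 0.0863, adjusted p = 1.23e-10), and SNHG7 by log2 0.78 (SE 0.103, adjusted p = 7.48e-06). Such host RNAs carry the sequence feature of TOP mRNAs, and their spliced forms are known to decay when they are translated. Of 65 ribosomal protein and elongation factor genes, which are TOP mRNAs too, 2 were shared rises, RPL12 (log2 0.66) and RPLP0, whose reads near-identical copies can share.

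Zinc finger and antisense genes were counted after the member list had been seen. Of 494 tested ZNF genes 19 were shared rises and 0 were shared falls (all genes tested, 2.49% and 4.11%), and 13 of the 19 were called with both combinations. With both combinations 120 of the 494 were called higher and 3 lower, beside 7.11% and 8.08% of all genes tested. ZNF473, which takes part in histone mRNA processing, rose from 18.9–20.3 CPM with STA9090 to 39.2–44.8 with PIK75 and 36.2–42.1 with BGT226 (log2 fold change 1.05, SE 0.0718, adjusted p = 1.69e-09). Of 309 antisense genes 10 were shared rises and 0 shared falls, a share of rises near the 2.49% of all genes tested. Because the strand setting of the counting is not given, their reads and those of the opposite gene cannot be told apart.

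**Figure D3:**
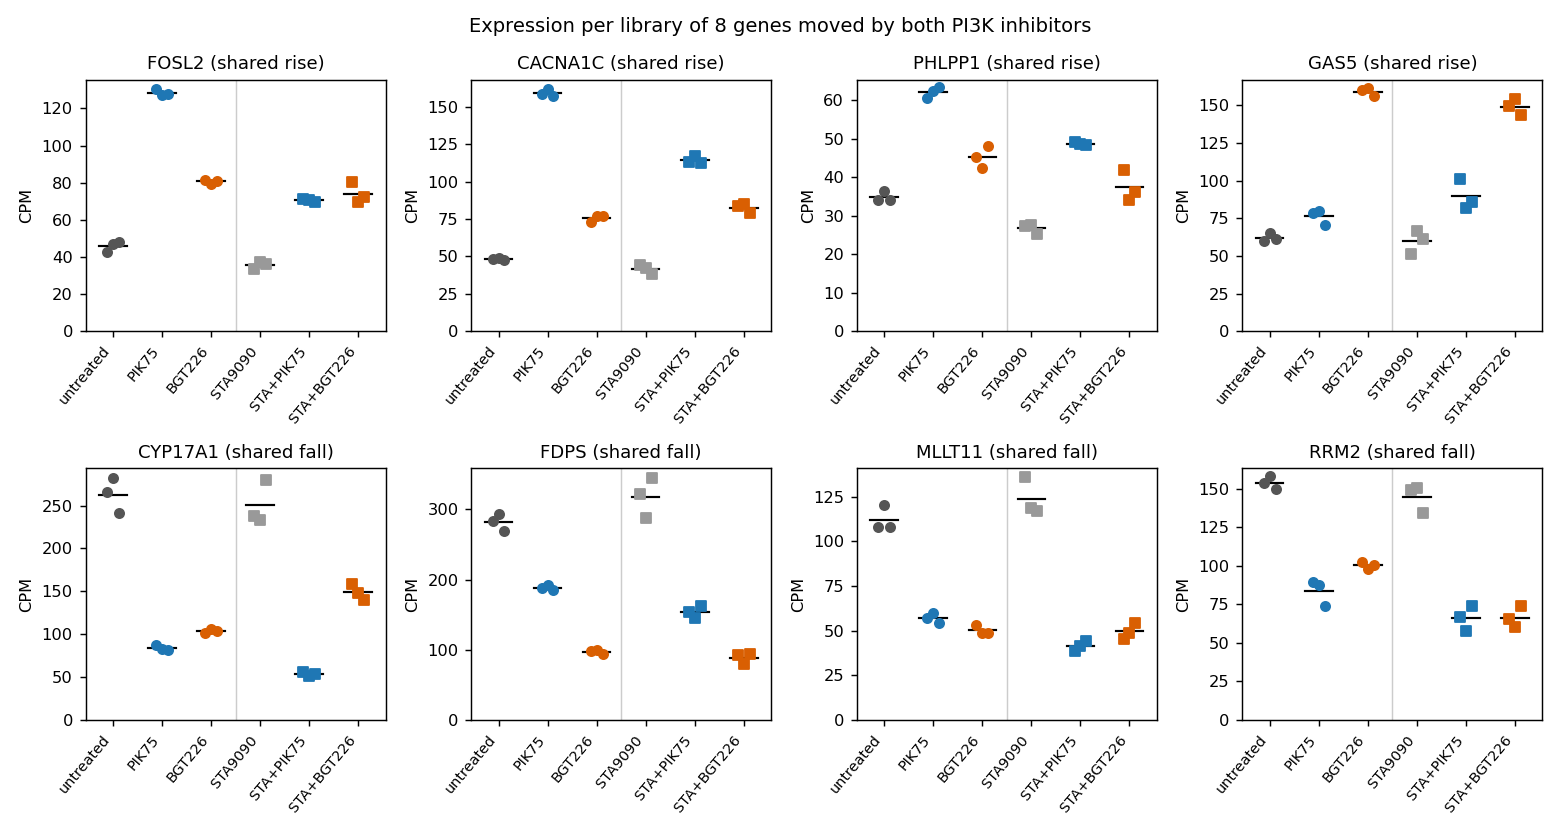
CPM (y axes, from 0) in each library of the 6 groups (x axes) for 4 shared rises (top) and 4 shared falls (bottom), with circles for libraries without and squares for libraries with STA9090 and lines for the mean of 3. In all 8 genes every library with a PI3K inhibitor lies beyond its controls, in the same direction on both sides of the grey line. The libraries left of the line chose the members, and list genes such as RRM2 were named by their adjusted p on top of STA9090. The separation is therefore a description only on both sides of the line. CACNA1C was named after its values were seen.

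Of the 875 list genes tested, 24 were shared rises and 90 shared falls, beside 2.49% and 4.11% of all genes tested, and the remaining members were in no list. The same 2 shares stand behind the count of members in each list. Behind each list's count of members called again with both combinations stand 50.4% of all shared rises and 66.4% of all shared falls. The lists were written with earlier results of these data known. They therefore order the members and give no independent support.

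**Figure D4:**
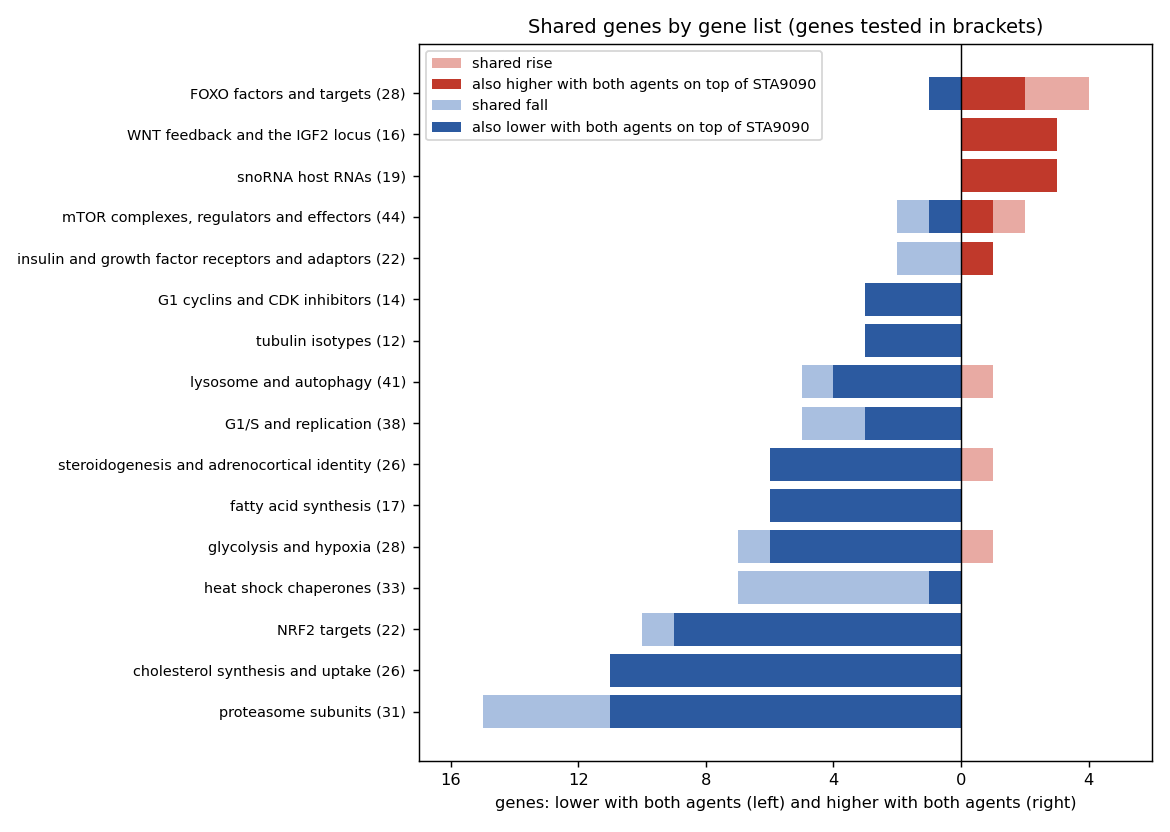
Number of shared falls (blue, left of 0) and shared rises (red, right of 0) in each gene list with 3 or more members, with the number of genes tested in brackets; darker bars are those called again in both STA9090 comparisons. Proteasome subunits hold 15 shared falls and genes of cholesterol synthesis and uptake 11, the latter all called again.

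Many genes of cholesterol synthesis and uptake were lower with both agents. Of 26 genes tested, 11 were shared falls, 0 were shared rises, and all 11 were called again with both combinations. FDPS, which makes farnesyl diphosphate (ENSG00000160752.14, chr1:155308748-155320666), stood at 283, 293 and 269.6 CPM untreated, 188, 192 and 185 with PIK75 and 97.9, 99.99 and 93.9 with BGT226. Its level was 322, 288 and 345 with STA9090, 154, 145 and 162 with STA9090+PIK75 and 92.03, 80.4 and 94.1 CPM with STA9090+BGT226. BGT226 gave the lower level in both settings and no groups overlapped (mean effect on top of STA9090, log2 fold change -1.45, SE 0.0667, adjusted p = 1.08e-11). EBP, a sterol isomerase, fell from 102–128 to 49.2–55.8 CPM with PIK75 and 35.7–40.8 with BGT226 (log2 fold change -1.38, SE 0.0756, adjusted p = 1.08e-10).

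Other members of the path fell as well. ACAT2, which makes acetoacetyl-CoA, fell from 103–107 CPM to 77.8–80.3 with PIK75 and 25.8–28.5 with BGT226 (log2 fold change -1.18, SE 0.0658, adjusted p = 1.23e-10). LSS, which closes the sterol rings, and DHCR7, which catalyses a last step, fell, by a log2 change of -1.22 and -0.92 (adjusted p = 9.55e-10 and 6.26e-08). HMGCS1, an early enzyme of the path, was no member, since PIK75 alone left it at log2 -0.17 (SE 0.0924). It fell with both combinations (log2 -0.74 and -1.15).

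Fatty acid synthesis gave the same picture, with 6 shared falls and 0 shared rises among 17 genes tested, all 6 called again. ACLY, which makes cytosolic acetyl-CoA, stood at 339, 405 and 347 CPM untreated, 306, 295 and 304 with PIK75 and 134, 141 and 131 with BGT226. On top of STA9090, at 316, 356 and 376 CPM, it was 199.7, 216 and 231 with PIK75 and 136, 115 and 132 with BGT226 (log2 fold change -1.07, SE 0.0763, adjusted p = 2.63e-09). The PIK75 step was small alone and larger on top of STA9090 (log2 -0.27 and -0.70), a change not tested here. SCD, the main desaturase, fell from 1195 ± 48.7 CPM with STA9090 to 657 ± 56.5 with PIK75 and 437 ± 32.9 with BGT226 (SD, n = 3), a mean log2 change of -1.16 (adjusted p = 1.31e-09). SREBF1, which encodes an SREBP factor, fell, by a log2 change of -0.75 (SE 0.0813, adjusted p = 6.83e-07), and the list also holds FADS1, FADS2 and the malic enzyme ME1.

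Several steroidogenic genes were lower with both agents, and here PIK75 gave the larger falls on top of STA9090. Of 26 tested genes, SCARB1, SULT2A1, FDX1, CYP11A1, STAR and CYP17A1 were shared falls, all 6 called again with both combinations. Others of the 26 moved apart, with 3 called in opposite directions by the agents alone (270 of 15787 genes tested). PIK75 alone called 2 higher and 14 lower (8.49% and 10.2% of all genes tested). BGT226 alone called 6 higher and 9 lower (12.8% and 15.7%). On top of STA9090 the median log2 fold change of the list was -0.82 with PIK75 and -0.12 with BGT226. CYP17A1, the enzyme that leads to cortisol and androgens (ENSG00000148795.7, chr10:102830531-102837533), stood at 266, 282 and 241 CPM untreated, 87.1, 82.97 and 81.4 with PIK75 and 102, 106 and 104 with BGT226. With STA9090 it was 238, 234 and 279.9, with STA9090+PIK75 55.6, 51.1 and 53.4 and with STA9090+BGT226 158, 148 and 140 CPM. No treated library overlapped its controls (log2 fold change -1.49, SE 0.0675, adjusted p = 1.08e-11). The combinations differed by log2 1.48 (SE 0.0836, adjusted p = 3.58e-11), higher with BGT226 in all 3 libraries.

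STAR, which moves cholesterol into mitochondria, fell from 405, 446 and 474 CPM with STA9090 to 158, 165 and 162 with PIK75 and 257, 260 and 259 with BGT226 (log2 fold change -1.11, SE 0.0654, adjusted p = 2.09e-10). The side-chain cleavage enzyme of cholesterol, CYP11A1, fell from 338–418 CPM to 124–141 and 246–261 (log2 fold change -1.03, SE 0.0757, adjusted p = 4.46e-09). FDX1, its electron donor, SCARB1, a receptor for high-density lipoprotein, and SULT2A1, which sulfates DHEA, fell, by a log2 change of -0.54, -1.01 and -1.06. For all 6 genes the level was higher with STA9090+BGT226 than with STA9090+PIK75, by log2 0.55 (FDX1) to 1.48 (CYP17A1). AGTR1, the angiotensin receptor that drives aldosterone, was the only shared rise of the list. It stood at 56.3–59.3 CPM untreated and 71.7–100.4 with either agent alone, but on top of STA9090 PIK75 overlapped its controls (log2 -0.06) and BGT226 gave log2 0.28.

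Targets of NRF2, the factor of the antioxidant response, held 10 shared falls and 0 shared rises among 22 genes tested, and 9 were called again with both combinations. NQO1, a quinone reductase, stood at 55.7, 64.2 and 59.4 CPM with STA9090, 29.7, 27.5 and 32.4 with STA9090+PIK75 and 21.6, 22.6 and 24.8 with STA9090+BGT226. Alone it stood at 40.1–50.9 CPM untreated, 30.8–35.97 with PIK75 and 22.4–23.6 with BGT226. Inhibitor and control libraries did not overlap in either setting (log2 fold change -1.19, SE 0.0765, adjusted p = 7.59e-10). GSR, which regenerates glutathione, AKR1C3, an aldo-keto reductase, and SRXN1, sulfiredoxin, fell, by a log2 change of -0.76, -1.15 and -0.49 (adjusted p = 9.80e-08, 1.45e-06 and 2.08e-06). Among glutathione S-transferases, a family counted after the members were seen, 7 of 15 were shared falls (4.11% of all genes tested). All 7 were called lower with both combinations (8.08% of all genes tested). GSTA1 fell from 57.9–61.4 CPM to 20.5–31.4 in the combinations (log2 fold change -1.29, SE 0.0829, adjusted p = 7.40e-10), although its near-identical relatives make its count uncertain.

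Proteasome subunits gave the largest count of any list, 15 shared falls and 0 shared rises among 31. BGT226 alone called all 31 lower (15.7% of all genes tested) and PIK75 alone 15 (10.2%). PSMD11, a subunit of the regulatory lid, stood at 126, 146 and 124 CPM untreated, 94.96, 85.96 and 77.2 with PIK75 and 71.7, 65.3 and 67.7 with BGT226. On top of STA9090, at 126, 140.3 and 146 CPM, it stood at 90.5, 88.9 and 96.4 with PIK75 and 67.7, 63.99 and 69.2 with BGT226 (log2 fold change -0.81, SE 0.0706, adjusted p = 4.16e-08). Of the 15 members 11 were called lower with both combinations, and all 31 subunits were called lower in the mean of both, beside 20.4% of all genes tested. With both combinations 14 of the 31 were called lower, beside 8.08% of all genes tested. The median log2 fold change of the list was -0.22 with STA9090+PIK75 and -0.72 with STA9090+BGT226. PSMB1 and PSMC5 were at log2 -0.01 and -0.04 with STA9090+PIK75 and fell with STA9090+BGT226 (log2 -0.67 and -0.62).

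The core of the antioxidant element, TGACNNNGC on either strand, lay in 17.9% of shared falls with a promoter window, 13.7% of shared rises and 1596 of 10646 genes tested. It is shown for 1 NRF2 target, ME1 (chr6:83431154-83431214, minus strand, match 137 bases before the start), and 1 proteasome subunit, PSMD12 (chr17:67366708-67366768, minus strand, match 165 bases before it), with the match in capitals.
ME1: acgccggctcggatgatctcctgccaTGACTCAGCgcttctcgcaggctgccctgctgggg
PSMD12: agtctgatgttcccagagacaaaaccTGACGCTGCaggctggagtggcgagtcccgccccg
ME1 fell from 46.5–54.4 CPM with STA9090 to 24.6–28.8 in the combinations (log2 fold change -0.89, SE 0.0616, adjusted p = 2.05e-09), and PSMD12 by log2 -0.54 (adjusted p = 0.000147).

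Glycolysis and hypoxia genes held 7 shared falls and 1 shared rise among 28 tested, and 6 of the falls returned with both combinations. LDHA, lactate dehydrogenase, stood at 169, 196 and 196 CPM with STA9090, 74.9, 63.4 and 71.3 with STA9090+PIK75 and 93.9, 95.98 and 87.9 with STA9090+BGT226 (log2 fold change -1.22, SE 0.0822, adjusted p = 1.42e-09). Its level alone was 165–214 CPM untreated, 89.2–111 with PIK75 and 115–120.5 with BGT226, again without overlap. ALDOC, an aldolase, and SLC2A1, the glucose transporter GLUT1, fell, by a log2 change of -0.78 and -0.67 (adjusted p = 4.62e-08 and 4.46e-07). PFKFB3, an activator of glycolysis, was called on top of STA9090 with PIK75 and not with BGT226 (log2 -0.53 and 0.15). The rise was PDK4, a kinase that shuts off pyruvate dehydrogenase and a known FOXO target, at 289.7–360 CPM with STA9090, 421–487 with STA9090+PIK75 and 337–359 with STA9090+BGT226, the last overlapping its controls.

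Of 38 tested G1/S and replication genes, E2F2, CDC45, CDC25A, RRM2 and CCNE2 were shared falls, 3 of them called again with both combinations. RRM2, a subunit of ribonucleotide reductase (ENSG00000171848.15, chr2:10120698-10131419), stood at 154, 158 and 150.1 CPM untreated, 89.6, 87.6 and 74.1 with PIK75 and 102, 98.1 and 100.3 with BGT226. With STA9090 it stood at 149, 150.3 and 134, with STA9090+PIK75 at 66.7, 57.5 and 73.8 and with STA9090+BGT226 at 65.5, 59.99 and 73.8 CPM. The combinations lay together, below all controls (log2 fold change -1.13, SE 0.0774, adjusted p = 1.81e-09). E2F2, an S phase transcription factor, fell from 34.96–40.02 CPM to 28.5–30.1 and 17.9–23.5 (log2 fold change -0.62, SE 0.0868, adjusted p = 1.50e-05). CDC25A, a phosphatase that frees CDK activity, and CDC45, a part of the replicative helicase, returned with BGT226 (log2 -1.17 and -0.82) and overlapped STA9090 with PIK75 (-0.09 and 0.03).

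CDC25A and E2F2 each hold an E2F site in their RefSeq promoter window. The letters searched, TTTGGCGC or TTTCCCGC on either strand, lay in 4.18% of shared falls, 2.96% of shared rises and 3.75% of genes tested. The stretches shown are chr3:48188428-48188487 (minus strand, match 44 bases before the start) and chr1:23531242-23531301 (minus strand, 42 bases before it), with the match in capitals.
CDC25A: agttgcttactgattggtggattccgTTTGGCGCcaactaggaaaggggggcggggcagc
E2F2: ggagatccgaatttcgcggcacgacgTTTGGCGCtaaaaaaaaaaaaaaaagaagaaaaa
Both genes carry the same 8 letters in the same orientation.

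Among 14 tested G1 cyclins and CDK inhibitors, CCND3, CDKN1A and CDKN2D were shared falls, and all 3 returned with both combinations. CDKN1A, the CDK inhibitor p21, stood at 85.5, 104 and 101 CPM untreated, 81.4, 77.5 and 81.3 with PIK75 and 39.1, 37.2 and 35.9 with BGT226. STA9090 libraries held 99.9, 88.5 and 100.5 CPM, STA9090+PIK75 44.8, 44.6 and 48.4 and STA9090+BGT226 28.7, 29.6 and 33.9 CPM (log2 fold change -1.35, SE 0.06798, adjusted p = 2.28e-11). An inhibitor of the cell cycle and a cyclin that drives it thus fell together. CCND3, cyclin D3, went from 101–109 CPM to 55.98–65.9 and 42.8–55.9 (log2 fold change -0.92, SE 0.0773, adjusted p = 2.79e-08). Of 34 tested G2/M and mitosis genes none was a member and 12 were called in opposite directions alone, as were 6 of 28 ATF4 targets and 4 of 20 collagens and basement membrane genes, beside 270 of 15787 genes tested. The G2/M and G1/S lists were alike in count on top of STA9090, with 26 of 34 and 26 of 38 genes called lower in the mean of both combinations (20.4% of all genes tested) and 6 of each lower with both (8.08%).

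Replication-dependent histone genes, a family counted after the members were seen, held 18 shared falls and 0 shared rises among 70 tested. Over all genes tested the shares were 4.11% and 2.49%. All 18 falls were called again. Of the 70, 47 were called lower with both combinations and 0 higher, beside 8.08% and 7.11% of all genes tested. HIST1H4C stood at 324, 423 and 503 CPM with STA9090, 254, 280.1 and 271 with STA9090+PIK75 and 223, 194 and 225 with STA9090+BGT226 (log2 fold change -0.80, SE 0.1254, adjusted p = 5.17e-05). Untreated and STA9090 libraries spread more widely in this gene (319–519.9 CPM) than those with an inhibitor (194–296). Histone genes have near-identical coding sequences, so reads may be divided between copies.

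Cytoskeletal genes were among the falls. Of 12 tested tubulin isotypes TUBB4A, TUBA4A and TUBB2A were shared falls, and all 3 returned. TUBB4A, a beta-tubulin, stood at 422–485 CPM with STA9090, 168–186 with STA9090+PIK75 and 288–313 with STA9090+BGT226 (log2 fold change -0.98, SE 0.08196, adjusted p = 2.43e-08). Troponin and myosin heavy chain genes were again counted after the values were seen. Of 11 tested, 5 were shared falls (4.11% of all genes tested) and 1 was called in opposite directions. All 5 falls were called lower with both combinations (8.08% of all genes tested). MYH11 and TNNC2 were near the floor, at means of 0.964 and 1.54 CPM with STA9090, and MYH11 with STA9090+PIK75 overlapped STA9090. MYH9, a nonmuscle myosin, fell from 678–834 CPM to 261–317 and 459.7–507 (log2 fold change -0.97, SE 0.0857, adjusted p = 4.81e-08).

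Several of the falls largest alone lay in no list. MLLT11 (ENSG00000213190.3, chr1:151057758-151068497) stood at 108, 120.3 and 108 CPM untreated, 57.1, 60.1 and 54.1 with PIK75 and 53.1, 48.9 and 48.6 with BGT226. Libraries with STA9090 alone held 136, 119 and 117 CPM, STA9090+PIK75 38.6, 41.5 and 44.03 and STA9090+BGT226 45.4, 48.97 and 54.4 CPM (log2 fold change -1.45, SE 0.0676, adjusted p = 1.08e-11). Inhibitor libraries stayed at 38.6–60.1 CPM in both settings. FABP3, a fatty acid carrier of muscle, fell from 11.2–14.8 CPM to 3.09–3.92 and 3.59–4.68 (log2 fold change -1.78, SE 0.123, adjusted p = 2.03e-09). CCL22, a chemokine, fell from 45.3–60.8 CPM to 18.4–21.9 and 15.2–17.8 (log2 fold change -1.48, SE 0.0897, adjusted p = 2.96e-10).

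The other falls chosen by size returned too, with 1 exception. DTNA, of the dystrophin complex, ITGA11, a collagen receptor, DUSP14, a phosphatase of MAP kinases, TP53INP2, a cofactor of autophagy, and KIAA0513 fell, by a log2 change of -1.44, -1.01, -1.02, -1.08 and -0.76 in the mean of both combinations (highest adjusted p = 1.43e-05). HSPB8, a small heat shock protein, was called with STA9090+BGT226 (log2 -0.95) and was at -0.33 with STA9090+PIK75.

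Among lists with 3 or more shared falls, those of the heat shock chaperones returned least. Of 33 tested, 7 were shared falls and 1 of these, CRYAB, was called again with both combinations. HSPB1, a small heat shock protein, stood at 187, 213 and 200.4 CPM untreated, 121, 119 and 164 with PIK75 and 126, 127 and 122.6 with BGT226. With STA9090 it stood at 181, 225 and 272, with STA9090+PIK75 at 272, 254 and 232 and with STA9090+BGT226 at 145, 153 and 142 CPM. PIK75 libraries overlapped STA9090 there and BGT226 libraries lay below (log2 0.16 and -0.62, difference -0.78, SE 0.1246, adjusted p = 3.62e-05). STIP1, a co-chaperone between HSP70 and HSP90, HSPA2 and HSPA9 were at log2 0.20, -0.02 and 0.08 with STA9090+PIK75 and -0.79, -0.54 and -0.45 with STA9090+BGT226. FKBP5, also an HSP90 co-chaperone, passed neither comparison. STA9090 is itself an HSP90 inhibitor, and its part in this list was not tested.

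Lysosome and autophagy genes held 5 shared falls among 41 tested, 4 of them called again. TFE3, a factor that drives lysosomal genes, fell from 70.9–77.1 CPM to 44.5–51.5 and 51.2–64.8 (log2 fold change -0.48, SE 0.0651, adjusted p = 9.76e-06), and ATP6V1A, a proton pump subunit, by log2 -0.60 (adjusted p = 1.14e-07). SQSTM1, an autophagy receptor, and NPC1, a cholesterol exporter, were the others. The rise was CTSF, a lysosomal protease, at 24.1–28.7 CPM with STA9090, 25.2–28.04 with STA9090+PIK75 and 49.2–55.3 with STA9090+BGT226.

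Of the 59 rises and 33 falls that passed neither STA9090 comparison, the 6 largest alone at a mean of 5 CPM or more were named by rule. TMSB4X, an actin-binding peptide, and SEC61A2, of the translocon, kept the sign of the fall without passing (log2 -0.31 and -0.35, and -0.24 and -0.30). DSE, an epimerase of dermatan sulfate and the only rise among the 6, was at log2 -0.17 and 0.16. AC068580.4 and AL513165.2 are transcripts without an established name.

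For 11 members, 8 rises and 3 falls, the agents pulled in opposite directions on top of STA9090, beside 3.91% of all genes tested. PIEZO1, a mechanosensitive ion channel (ENSG00000103335.22, chr16:88715338-88785220), stood at 12.3, 14.5 and 15.7 CPM untreated, 21.1, 20.6 and 23 with PIK75 and 18.04, 20.8 and 18.2 with BGT226. The STA9090 libraries gave 11.7, 12.7 and 11.9 CPM, STA9090+PIK75 5.89, 8.02 and 8.07 and STA9090+BGT226 25.04, 22.7 and 19.9 CPM. All 3 STA9090+PIK75 libraries lay below and all 3 STA9090+BGT226 libraries above STA9090. KCNJ5, a potassium channel of aldosterone control, showed the same pattern, at 203–206 CPM with STA9090, 164–183 with STA9090+PIK75 and 285–325 with STA9090+BGT226.

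**Figure D5:**
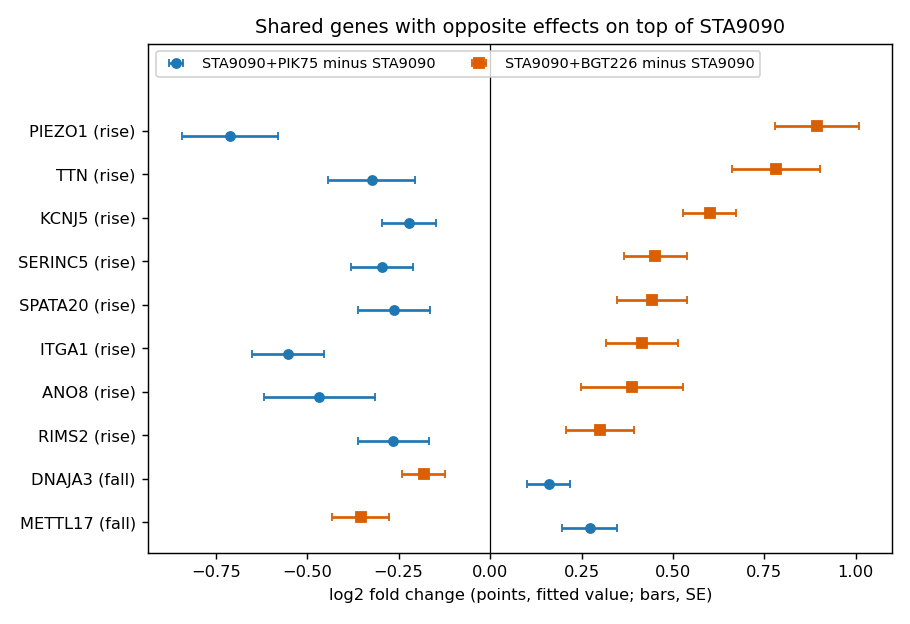
Log2 fold change on top of STA9090 (x axis) of 10 members called in opposite directions by PIK75 (blue circles) and BGT226 (orange squares), with bars for the SE; the word in brackets gives the direction alone. The 8 rises lie left of 0 with PIK75 and right of 0 with BGT226, and the 2 falls shown lie the other way round.

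The E-box CACGTG, searched on both strands, lay in 14.1% of shared rises with a promoter window, 8.96% of shared falls and 10.2% of genes tested. For the NR5A1 site CAAGGTCA the shares were 0.370%, 0.996% and 0.770%, and for the ATF4 composite site TGATGNAA 1.85%, 1.2% and 1.61%. None of the 4 steroidogenic members with a window, and none of the 18 such genes of the list, held the NR5A1 letters. The SREBP site searched lay in 0 of 270 shared rises, 0 of 502 shared falls and 4 of 10646 genes tested. Among shared falls with a window, 0 of 7 of cholesterol synthesis and uptake and 0 of 6 of fatty acid synthesis held it. With so few matches among all genes tested, this search cannot tell these sets apart. The median GC content of the windows was 65.0% for rises, 67.3% for falls and 65.3% for genes tested.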

How the data were processed

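Bulk RNA-seq of 18 libraries, 3 in each of 6 groups taken from the sample labels, was analysed from the table of expected counts per gene that the authors deposited. Per the submitters' processing notes these came from bcl2fastq 2.20, cutadapt 1.18, STAR 2.7.0f and RSEM 1.3.1 on hg38; the annotation release and strand setting were not given in those notes or labels. Here the counts were rounded (a change of at most 0.000381% of a library total) and fitted in 1 model of group means with edgeR 4.0.16 (R 4.3.3, TMM scaling, filterByExpr with a minimum count of 10 and total of 15, quasi-likelihood F-test, Benjamini-Hochberg, threshold 0.05). Fold changes are log2 with a largest prior count of 0.125, each SE is the absolute log2 fold change over the root of F, and CPM uses TMM-scaled totals. Positions come from GENCODE 29, in which 99.5% of IDs were found.

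Depth of 10.2 to 21.1 M counts limits precision at low CPM, and counting error is only a part of the spread. The members and lists were chosen with earlier results of these data known. Named by rule were the 10 protein-coding rises and 10 falls largest alone at 5 CPM or more, up to 3 members per list by adjusted p on top of STA9090, up to 6 passing neither STA9090 comparison, members split between the combinations, and a few pathway genes; other members were named after their values were seen, including all further members of a list, CACNA1C, ZNF473 and those of the counted families. Replicate numbers showed little pairing of samples (same-number correlations of residuals from -0.17 to 0.05). For untreated against BGT226 the same number was the best match in each replicate, at correlations of 0.03 to 0.05. Alternatives were RLE scaling, other filters, DESeq2 1.42.0, separate fits, a replicate block, 50 top genes left out, stricter thresholds and each library left out. Some members are counted but not reported here by name.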

Additional observations from a re-analysis of the deposited data

Results flagged for a closer look

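For 11 members the combinations were called on opposite sides of STA9090. That choice fixes a difference between the combinations, so the log2 fold change of STA9090+BGT226 over STA9090+PIK75 is given as a description and was not tested. Among members higher with both agents alone it was 1.60 for PIEZO1, 1.11 for TTN, the giant sarcomere protein, and 0.97 for ITGA1, a collagen-binding integrin. It was 0.86 for ANO8, 0.82 for KCNJ5, 0.75 for SERINC5, 0.71 for SPATA20 and 0.56 for RIMS2, a presynaptic scaffold. Among members lower with both agents alone it was -0.63 for METTL17, a factor of the mitochondrial ribosome, and -0.34 for DNAJA3, a mitochondrial co-chaperone.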

How the results depend on the processing

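At an adjusted p of 0.01 there were 134 shared rises and 306 shared falls, with 71 and 210 called again in both STA9090 comparisons; at 1.5-fold or more alone there were 125 and 119, with 54 and 80. Leaving out each library in turn gave 234 to 422 rises and 477 to 739 falls, with 127 to 191 and 332 to 441 called again and 0 called opposite; the called share ran from 42.2% to 55.1% of rises and from 59.3% to 70.3% of falls. Without a filter on low counts 6 members were called opposite. With a replicate block, although replicate numbers showed little pairing, there were 365 rises and 622 falls, with 184 and 406 called again. DESeq2 gave 316 and 587, with 163 and 384 called again, and fits of compared pairs alone 293 and 485, with 137 and 306; the mean of both combinations cannot be had from pairs. Other scalings, filters and separate fits stayed within 1.5 times of these counts.

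Of 221 log2 fold changes of named genes on top of STA9090, 201 kept their sign and side of the threshold throughout, including 11 computed after the values were seen and 11 differences that the choice of members fixes. Of the other 20, 17 crossed the threshold with their sign kept. Calls were lost for PFKFB3 in 17 of 25 settings, TMSB4X and PIK3CA in 10 each, HSPA9 in 7, LAMP1 in 5, LAMTOR5 in 4 and CCND1 in 3 of 24. They were lost in 2 settings each for ASNS, ETV4, IGF2 and IRS2 and in 1 each for CIDEB, MLX, RPLP0 and TBC1D7, and gained in 3 for HSPB1 and 1 for SEC61A2. The remaining 3, near 0, changed sign: DSE was 0.0609 without STA9090 replicate 1, 0.00128 and 0.00394 without STA9090+PIK75 replicates 2 and 3, and 0.0197 without STA9090+BGT226 replicate 1. IGF1R was -0.00228 without STA9090 replicate 3, and AL513165.2 was 0.00587 without STA9090+PIK75 replicate 3 and 0.00326 without STA9090+BGT226 replicate 2. Over all libraries left out in turn, DSE ran from -0.0795 to 0.0609, IGF1R from -0.00228 to 0.1103 and AL513165.2 from -0.1131 to 0.00587; the cause was not tested.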
